A study of Mus musculus with 228 samples.

Results

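The genes described here are 10 markers of microglia and of tissue macrophages: Cx3cr1, P2ry12, Tmem119, Csf1r, Aif1, C1qa, C1qb, C1qc, Adgre1 and Clec4f. They were chosen by name, as the rows of the count table whose gene name equals one of these symbols. All 10 were found, out of 46331 named rows. The rule used names and no measured value, but the genes were chosen with earlier results of these data known. The annotation of mouse build GRCm38.p6 places Cx3cr1 on chromosome 9, P2ry12 on 3, Tmem119 on 5, Csf1r on 18, Aif1 and Adgre1 on 17, Clec4f on 6, and C1qa, C1qb and C1qc together on chromosome 4.

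The study sequenced messenger RNA of 10 tissues of C57BL/6N mice (an inbred strain), aged 10 weeks when supplied and kept 42 days under 1 of 5 light regimes. Antibiotics mice drank water carrying a mixture of broad-spectrum antibiotics, and chow mice drank sterilized water, while both ate the same irradiated pellets. The regimes gave 0, 8, 12, 16 or 24 h of light per day and are written LD0/24, LD8/16, LD12/12, LD16/8 and LD24/0, with the hours of dark after the slash. Antibiotics and chow were both sampled in liver (29 antibiotics and 30 chow libraries used, 5 or 6 per regime), hypothalamus (15 of each, 3 per regime) and the tissue labelled colon epithelium (15 of each, 3 per regime). Chow mice alone, 15 libraries each, gave inguinal white fat, thymus, spleen, mammary gland and the epithelium of ileum, jejunum and cecum. Mice were housed singly, and neither their sex nor the hour of sampling is given in the sources used here. The sources do not say whether each library of a group is a different mouse, and the p-values below therefore cover only library-to-library spread, which may be technical.

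Macrophages seed nearly every organ, and many descend from embryonic precursors that renew themselves in place. Microglia are those of the brain and Kupffer cells those of the liver sinusoids, where they meet blood arriving from the gut. All depend on the CSF1 receptor, and each organ adds its own genes to a shared macrophage program driven by the transcription factor PU.1.

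Promoter sequence from RefSeq (build GRCm38.p6), the 250 bases before the start of the gene, was matched for 6 of the 10 genes: Cx3cr1, P2ry12, Aif1, C1qb, C1qc and Clec4f. Those of C1qb and C1qc are shown because these neighbouring genes encode chains of 1 protein and moved together, and that of Clec4f because no other gene of the set was so bound to 1 tissue. They lie at chr4:136886201-136886450, chr4:136892915-136893164 and chr6:83656117-83656366, all read from the minus strand, 5′ to 3′. Capitals mark matches to GAGGAA, a core of PU.1 sites, and to TGCTGA, a core of the sites of Maf factors, searched on both strands.
C1qb: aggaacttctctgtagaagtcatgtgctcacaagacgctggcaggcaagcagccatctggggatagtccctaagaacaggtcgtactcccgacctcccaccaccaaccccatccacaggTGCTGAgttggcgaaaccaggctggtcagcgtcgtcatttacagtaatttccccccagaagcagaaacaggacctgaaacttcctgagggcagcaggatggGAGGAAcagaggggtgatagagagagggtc
C1qc: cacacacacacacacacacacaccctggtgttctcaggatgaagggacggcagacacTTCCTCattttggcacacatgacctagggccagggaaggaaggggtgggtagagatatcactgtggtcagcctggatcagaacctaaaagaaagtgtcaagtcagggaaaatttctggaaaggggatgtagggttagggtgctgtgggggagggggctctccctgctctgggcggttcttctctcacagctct
Clec4f: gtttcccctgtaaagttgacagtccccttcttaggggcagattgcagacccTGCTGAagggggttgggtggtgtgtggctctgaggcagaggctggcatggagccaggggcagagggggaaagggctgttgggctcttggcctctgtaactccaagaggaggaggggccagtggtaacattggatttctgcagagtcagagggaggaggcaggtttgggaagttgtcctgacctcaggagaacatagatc
C1qb held GAGGAA beginning 30 bases before the start and TGCTGA beginning 131 bases before it. C1qc held 1 match to GAGGAA, on the other strand (TTCCTC in the sequence), beginning 193 bases before the start, and Clec4f held 1 TGCTGA, 199 bases before it. Aif1 had 1 match to GAGGAA, beginning 7 bases before the start, and the promoters of Cx3cr1 and P2ry12 had none to either motif. A composite motif of PU.1 with interferon regulatory factors, which can overlap GAGGAA, was in none of the 6. Of 32851 promoters of the same length, 23.3% held GAGGAA, 16.1% held TGCTGA and 2.3% held the composite motif, so the matches are a description only.

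Library totals ran from 61.8 to 159 M counts in antibiotics livers and 72.9 to 136 M in chow livers, from 69.5 to 170 M in antibiotics and 68.7 to 110 M in chow hypothalamus, and from 8.92 to 133 M in antibiotics and 37.8 to 86.7 M in chow colon. A library was called doubtful where mitochondrial RNA took over 3 times the median share of its tissue, or where under 0.6 of the median number of genes was detected (at least 5 counts). This held for 5 of 30 chow livers (LD0/24 replicates 1 and 4, LD8/16 replicate 3, LD12/12 replicate 2 and LD24/0 replicate 5), with 30.4% to 62.6% mitochondrial counts, and for 0 of 29 antibiotics livers, whose highest share was 7.62%. It also held for 1 antibiotics colon (LD8/16 replicate 1, 4034 genes detected), 2 ileum, 2 jejunum, 2 spleen and 1 mammary gland libraries, all but the colon on chow. One more antibiotics liver, LD0/24 replicate 1, had 0 counts for every gene of chromosomes 18, 19 and X and for 473 of 685 expressed genes of chromosome 17. Csf1r, Aif1 and Adgre1 were at 0 in it, and it was left out. Tissue labels were borne out by their markers: hepatocyte genes summed to at least 106774 CPM (counts scaled to library size) in every liver, and hypothalamic neuropeptide and regulator genes to 247 to 2749 CPM in antibiotics and 65.7 to 2335 CPM in chow hypothalamus, against at most 0.429 CPM in any liver. Colon libraries labelled epithelium also held smooth muscle genes, at a median sum of 7620.1 CPM with antibiotics and 7225 CPM on chow.

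In liver, 4 of the 10 genes were lower with antibiotics than on chow and none was higher: Cx3cr1, Csf1r, Aif1 and Clec4f. With all libraries counted Cx3cr1 fell furthest, to 0.496 of its chow level, and the others fell to between 0.741 and 0.806. This order depended on the doubtful chow livers. Without them the fall of Cx3cr1 was smaller, and Csf1r fell further than Cx3cr1. The test was edgeR's quasi-likelihood test of antibiotics against chow averaged over the 5 regimes, with Benjamini-Hochberg adjustment over 19234 genes and a threshold of 0.05. It called 33.2% of all genes in liver, 18.4% as lower and 14.8% as higher, against 4 of 10 lower and 0 of 10 higher in this set. Log2 fold changes were below 0 for 9 of 10 genes, against 50.7% of all genes, with a median of -0.30 for the set and -0.00 for all genes. In whole tissue, fewer cells of a type and less RNA per cell cannot be told apart.

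Cx3cr1 encodes the receptor for the chemokine fractalkine and marks microglia, monocytes and some resident macrophages. It ran from 0.175 to 1.46 CPM (median 0.724) in antibiotics livers, against 0.369 to 4.78 CPM (median 1.16) in chow livers. The groups overlapped, but 28 of 29 antibiotics livers lay below the chow mean of their own regime, and 11 chow livers lay above the highest antibiotics liver. Those chow means include high single livers: the doubtful ones and, in LD16/8, replicate 6 at 2.59 CPM (1.09 to 1.53 CPM in the others of its group). Means were 0.705 ± 0.256 CPM with antibiotics (SD, n = 29) and 1.48 ± 1.03 CPM on chow (SD, n = 30), a log2 fold change of -1.01 ± 0.20 (SE, adjusted p = 5.49e-05 by edgeR's quasi-likelihood test). The 5 doubtful chow livers held 2.70 to 4.78 CPM of Cx3cr1, and without them the chow mean was 1.1 ± 0.512 CPM (SD, n = 25) and the log2 fold change -0.53 (adjusted p = 0.00172, edgeR). The call for Cx3cr1 stood whichever single library was left out.

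Csf1r, the receptor through which CSF1 and interleukin 34 keep macrophages alive, ran from 21.7 to 79.8 CPM (median 46.3) in antibiotics livers, against 21.8 to 208 CPM (median 54.6) in chow livers. The ranges began at about the same level, and 9 chow livers lay above the highest antibiotics liver. Csf1r averaged 47.0 ± 14.1 CPM with antibiotics (SD, n = 29) and 64.3 ± 37.7 CPM on chow (SD, n = 30), with a log2 fold change of -0.43 ± 0.16 (SE, adjusted p = 0.0341, edgeR). This call was lost when any of 6 libraries was left out: chow LD0/24 replicate 5, LD8/16 replicates 5 and 6, LD16/8 replicate 6 or LD24/0 replicate 6, or antibiotics LD0/24 replicate 5 (adjusted p up to 0.0979, edgeR). Limma-voom gave Csf1r -0.31 (adjusted p = 0.149) and edgeR with the replicate number as a block -0.38 (adjusted p = 0.0628), while without the doubtful livers, where Csf1r stood at 21.8 to 44.3 CPM, edgeR gave -0.58 (adjusted p = 0.00166).

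Clec4f, a lectin of Kupffer cells, ran from 55.6 to 190 CPM (median 123) in antibiotics livers, against 77.9 to 371 CPM (median 127) in chow livers. The LD16/8 chow mean of Clec4f includes replicate 6 at 371 CPM, against 101 to 169 CPM in the others of its group. In 25 of 29 antibiotics livers Clec4f was below the chow mean of the regime, 5 lay under the lowest chow liver, and 6 chow livers lay over the highest antibiotics liver. Its mean was 115 ± 32.6 CPM with antibiotics (SD, n = 29) and 148 ± 60.6 CPM on chow (SD, n = 30), a log2 fold change of -0.35 ± 0.12 (SE, adjusted p = 0.0227, edgeR). Without chow LD16/8 replicate 6, the chow liver with the highest Clec4f, the change was -0.27 (adjusted p = 0.0596, edgeR), so this call rests on that library. Aif1, which encodes the actin-binding protein IBA1 used to stain microglia and macrophages, ran from 3.89 to 9.79 CPM (median 5.55) with antibiotics, against 4.15 to 17.3 CPM (median 6.59) on chow. Its log2 fold change was -0.31 ± 0.10 (SE, adjusted p = 0.0158, edgeR), with 23 of 29 antibiotics livers below the chow mean of their regime and overlapping groups. Without the doubtful livers Aif1 stood at -0.23 (adjusted p = 0.0805, edgeR).

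The 3 chains of C1q, the recognition part of the classical complement pathway that macrophages secrete, were not called in liver. C1qa ran from 33.4 to 88.6 CPM (median 57.9) in antibiotics livers, against 33.5 to 190 CPM (median 65.3) in chow livers, and 23 of 29 antibiotics livers lay below the chow mean of their regime. Those means include LD16/8 replicate 6 at 190 CPM (59.9 to 70.0 in the others of its group) and LD8/16 replicate 6 at 178 CPM (52.6 to 86.9). The log2 fold change of C1qa was -0.28 ± 0.11 (SE, adjusted p = 0.0522, edgeR), just short of the threshold. C1qb averaged 54.1 ± 13.6 CPM with antibiotics (SD, n = 29) and 66.5 ± 39.5 CPM on chow (SD, n = 30), at -0.28 ± 0.15 (SE, adjusted p = 0.162, edgeR). C1qc averaged 52.4 ± 13 CPM with antibiotics and 64.9 ± 36.1 CPM on chow, at -0.29 ± 0.16 (SE, adjusted p = 0.153, edgeR). In each chain the antibiotics libraries lay inside the chow range, apart from 1 for C1qa, and the chow libraries were spread more widely. Without the 5 doubtful livers, all 3 passed by edgeR: C1qa at -0.35 (adjusted p = 0.009), C1qb at -0.42 (adjusted p = 0.0125) and C1qc at -0.45 (adjusted p = 0.00245). C1qa also passed by edgeR when any 1 of 16 libraries was left out: chow LD0/24 replicate 4, LD8/16 replicates 1, 3 and 4, LD12/12 replicate 2, LD16/8 replicates 1, 3, 4 and 5 and LD24/0 replicate 1, or antibiotics LD8/16 replicates 1 and 3, LD12/12 replicate 1, LD16/8 replicate 5 and LD24/0 replicates 1 and 2 (lowest adjusted p = 0.0308). Leaving out any 1 of the other 43 left C1qa uncalled, with an adjusted p of up to 0.140 (edgeR).

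Adgre1, which encodes the macrophage surface protein F4/80, ran from 4.80 to 27.2 CPM (median 15) in antibiotics livers, against 1.21 to 63.3 CPM (median 14.8) in chow livers. The medians were close, and the chow livers spread on both sides, with 8 above the highest antibiotics liver and the doubtful livers lowest, at 1.21 to 4.43 CPM. The log2 fold change of Adgre1 was -0.31 ± 0.26 (SE, adjusted p = 0.375, edgeR), and -0.53 without the doubtful livers (adjusted p = 0.0467). The microglial genes P2ry12, an ADP receptor, and Tmem119, a surface protein used to tell microglia from other macrophages, were low in liver. P2ry12 averaged 1.58 ± 0.536 CPM with antibiotics and 1.44 ± 0.654 CPM on chow, and was the only gene of the set with a log2 fold change above 0, of 0.17 (95% interval -0.11 to 0.46, adjusted p = 0.375, edgeR). Tmem119 averaged 0.797 ± 0.314 CPM with antibiotics and 0.943 ± 0.449 CPM on chow, a log2 fold change of -0.20 (95% interval -0.53 to 0.12, adjusted p = 0.369, edgeR).

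**Figure D1:**
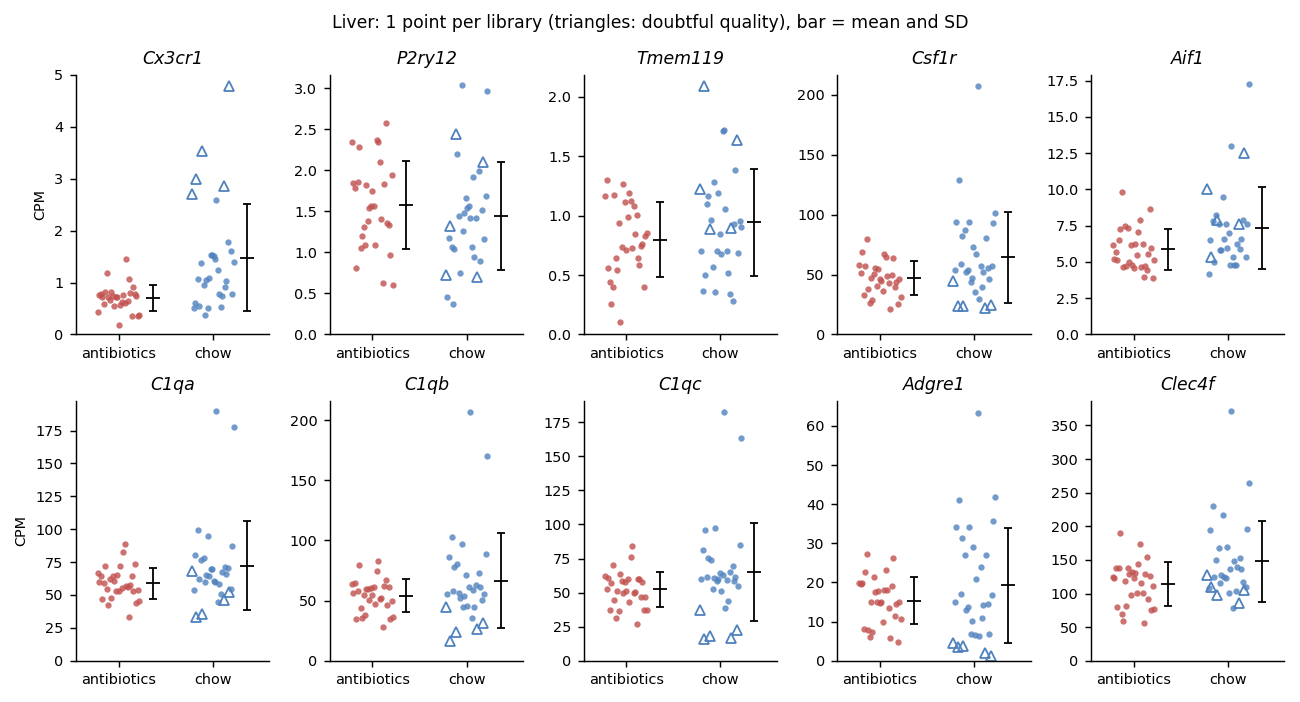
CPM of the 10 genes in liver, 1 point per library with antibiotics at left and chow at right; triangles are the 5 doubtful chow livers, and the bar is the mean with its SD. Triangles lie high for Cx3cr1, at 2.70 to 4.78 CPM, and low for Adgre1, at 1.21 to 4.43 CPM.

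The doubtful livers thus stood high for Cx3cr1 and low for Csf1r, C1qb, C1qc and Adgre1. Without them 7 of 10 genes were called lower (Cx3cr1, Csf1r, C1qa, C1qb, C1qc, Adgre1 and Clec4f) and none higher, against 17.4% lower and 20.7% higher among all genes (38.0% in either direction). The median log2 fold change of the set was then -0.42, against 0.03 for all genes. Chow LD16/8 replicate 6, with 2.96% mitochondrial counts, was the highest liver for Csf1r, C1qa, C1qb, C1qc and Clec4f, and leaving it out took the count of genes called lower to 2 (Cx3cr1 and Aif1). Putting back the antibiotics liver that lacks chromosomes also gave 2 (Cx3cr1 and Clec4f). The part of RNA quality in these calls was not tested.

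Antibiotics livers had the lower mean of Cx3cr1 and Aif1 in 5 of 5 regimes, and of Tmem119, Csf1r, C1qa, C1qb, C1qc, Adgre1 and Clec4f in 4 of 5. For Cx3cr1 the regime means were 0.658, 0.587, 0.823, 0.561 and 0.887 CPM with antibiotics from LD0/24 to LD24/0, against 1.41, 1.90, 1.30, 1.62 and 1.18 CPM on chow. These chow means include the doubtful livers. Of these, LD12/12 replicate 2 stood at 3.53 CPM (0.369 to 1.38 in the others of its group) and LD24/0 replicate 5 at 2.86 CPM (0.538 to 1.24). Whether the order of means holds in each regime without the doubtful livers was not tested. For Csf1r the regime means were 53.8, 41.6, 45.1, 46.3 and 49.2 CPM with antibiotics, against 67.2, 62.8, 65.4, 79.0 and 46.9 CPM on chow, so in constant light the order was turned. The diet effect of no gene of the set was called as differing among regimes by edgeR, DESeq2 or limma-voom, against 0.0052% of all genes by edgeR. In the set 1 of 10 had an unadjusted p under 0.05, P2ry12 (adjusted p = 0.776 by edgeR's quasi-likelihood test), against 1187 of 19234 among all genes.

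**Figure D2:**
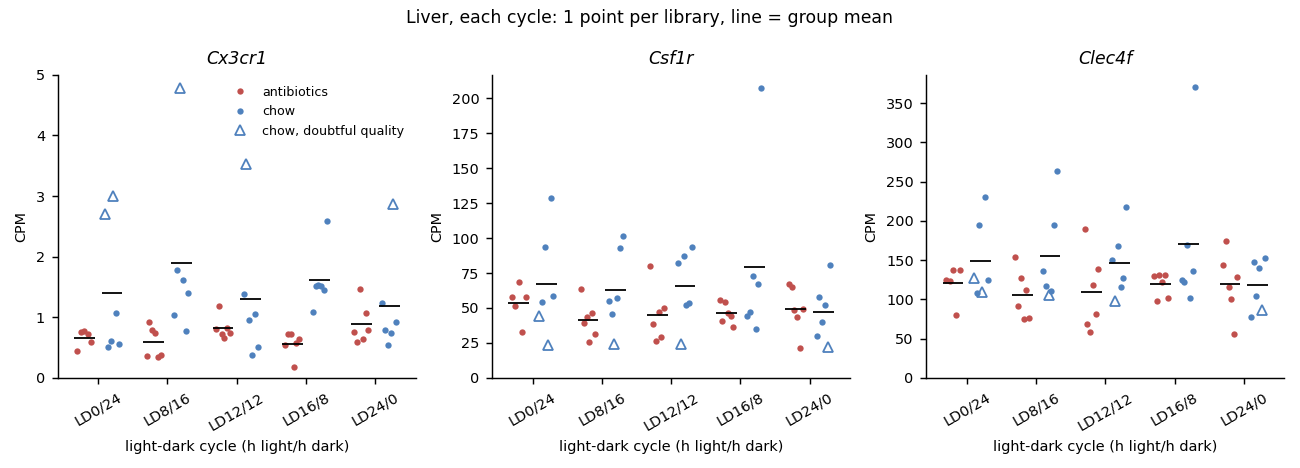
CPM of Cx3cr1, Csf1r and Clec4f in liver by light-dark regime, with antibiotics left of chow in each regime, 1 point per library and a line at the group mean; triangles are doubtful chow livers. Antibiotics means of Cx3cr1 lie between 0.561 and 0.887 CPM, below every chow mean with the triangles counted in, while in LD24/0 the Csf1r means were 49.2 CPM with antibiotics and 46.9 CPM on chow.

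The further macrophage lists differed in liver, where 18.4% of all genes were called lower and 14.8% higher. Of 17 pan-macrophage genes, 6 fell and none rose (median log2 fold change -0.23; 7 fell without the doubtful livers), among them Mpeg1, a pore-forming protein of phagocytes (57.6 ± 14.6 CPM with antibiotics and 97.8 ± 33.0 CPM on chow, -0.76, adjusted p = 7.6e-07), and Cd68, a lysosomal protein (7.68 ± 2.29 CPM with antibiotics and 11.2 ± 4.95 CPM on chow, -0.53, adjusted p = 0.00116), both by edgeR. The Fc receptor genes Fcgr1 and Fcer1g were also among the 6. Of 10 microglia genes tested, 5 fell, with the fructose transporter Slc2a5 at -0.93, and 2 rose, Siglech at 1.31, from low levels (0.329 ± 0.169 CPM with antibiotics and 0.147 ± 0.147 CPM on chow), and Gpr34 at 0.75. These counts were the same without the doubtful livers. Of 7 genes of border macrophages, those of vessels and brain linings, 3 fell (Pf4 at -1.21, F13a1 at -1.19 and the haemoglobin scavenger receptor Cd163 at -0.74) and Cbr2 rose, the last not past the threshold without the doubtful livers (adjusted p = 0.0588, edgeR). Among 10 further Kupffer cell genes 2 rose, the iron exporter Slc40a1 at 0.43 and the regulator Id3 at 0.65, and Clec1b alone fell, at -0.28, with 2 rising and 3 falling without the doubtful livers. Log2 fold changes were below 0 for 7 of these 10, with a median of -0.09 (-0.23 without the doubtful livers). Csf1, a ligand of the Csf1r receptor, fell by 0.43 on the log2 scale (10.9 ± 2.36 CPM with antibiotics and 14.7 ± 4.26 CPM on chow, adjusted p = 0.000112, edgeR). Il34, its other ligand, stood at -0.18 (adjusted p = 0.263), and Irf8, a regulator of macrophage fate, fell by 0.30. Of 6 monocyte genes 3 fell (Chil3, Plac8 and F10), of 7 dendritic cell genes Batf3 fell, of 12 complement genes 1 was called in each direction, with C4b lower, and of 11 activation genes Lpl and Axl fell. Without the doubtful livers 1 gene rose in each of these 4 lists. Then 2 monocyte, 1 dendritic cell, 3 complement and 2 activation genes fell. The 6 monocyte genes summed to a median of 501 CPM with antibiotics and 551 CPM on chow in liver. In hypothalamus the medians were 2.85 CPM with antibiotics and 2.54 CPM on chow. Which liver cells made F10 and the other RNAs of this list was not tested.

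Genes of other blood cells moved with diet as well. All 6 neutrophil markers fell in antibiotics livers, where their sum ran from 0.388 to 8.88 CPM (median 1.23), against 2.12 to 545 CPM (median 6.79) on chow. T cell markers rose in 3 of 5 cases, with sums of 1.71 to 7.46 CPM with antibiotics and 1.23 to 6.29 CPM on chow. B cell markers were called in 0 of 4 cases by edgeR. Hepatocyte markers summed to a median of 123314 CPM with antibiotics and 162786 CPM on chow, with Alb falling and Cyp2e1 rising. Smooth muscle markers rose in 4 of 5 cases and stellate cell markers in 3 of 5. Their part in the levels of the macrophage genes was not tested.

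In hypothalamus no gene of the set was called between antibiotics and chow, among the 9 tested. Clec4f was at 0 in 13 of 15 libraries of each diet and was not tested. The 2 smallest p-values pointed opposite ways, with P2ry12 lower and C1qc higher with antibiotics. Across all genes 14.2% of 24557 were called by edgeR (5.8% higher and 8.4% lower). Of the set, 2 of 9 had an unadjusted p under 0.05 by edgeR, against 7377 of 24557 among all genes. DESeq2 and limma-voom called 0 of the set as well. Log2 fold changes were below 0 for 3 of 9, against 46.9% of all genes.

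P2ry12, through which microglial processes sense ADP from injured cells, ran from 15 to 26.3 CPM (median 19.3) with antibiotics, against 16.9 to 26.6 CPM (median 22.1) on chow. The ranges overlapped, with 4 antibiotics libraries under the lowest chow library, and 14 of 15 antibiotics libraries were below the chow mean of their regime. P2ry12 averaged 19.3 ± 3.03 CPM with antibiotics and 22.1 ± 2.89 CPM on chow (SD, n = 15 each), a log2 fold change of -0.19 ± 0.07 (SE, adjusted p = 0.0753, edgeR). C1qc ran from 29.998 to 51.7 CPM (median 38.5) with antibiotics, against 28.4 to 51.8 CPM (median 34.0) on chow. It averaged 39.5 ± 5.78 CPM with antibiotics and 35.0 ± 5.27 CPM on chow, with a log2 fold change of 0.17 ± 0.07 (SE, adjusted p = 0.105, edgeR) and 12 of 15 antibiotics libraries above the chow mean of their regime. Both answers depended on single libraries. Without antibiotics LD16/8 replicate 1, P2ry12 was called lower (-0.23, adjusted p = 0.0209) and C1qc higher (0.21, adjusted p = 0.0416), and without chow LD12/12 replicate 3, C1qc was called higher (0.22, adjusted p = 0.00783), all by edgeR.

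The other hypothalamic levels were close between diets. Cx3cr1 averaged 30.5 ± 4.31 CPM with antibiotics and 33.1 ± 4.31 CPM on chow, with 12 of 15 antibiotics libraries below the chow mean of their regime (log2 fold change -0.11, 95% interval -0.24 to 0.02, adjusted p = 0.248, edgeR). Csf1r averaged 61.3 ± 6.28 CPM with antibiotics and 57.4 ± 5.36 CPM on chow (0.10, interval -0.01 to 0.20, adjusted p = 0.234, edgeR). Tmem119 averaged 18.1 ± 3.71 CPM with antibiotics and 17.7 ± 2.23 CPM on chow, and C1qb 50.8 ± 6.81 CPM with antibiotics and 50.7 ± 7.05 CPM on chow. Intervals of the log2 fold change were -0.15 to 0.18 for Tmem119, -0.13 to 0.13 for C1qb, -0.09 to 0.25 for C1qa, -0.19 to 0.33 for Aif1 and -0.21 to 0.30 for Adgre1. A loss of the size seen for Cx3cr1 in liver lies outside each of these intervals. Whether liver and hypothalamus differed in the diet effect was not tested. Of 11 further microglia genes Trem2, a lipid-sensing receptor, rose by 0.26 (13.4 ± 1.82 CPM with antibiotics and 11.2 ± 2.05 CPM on chow, adjusted p = 0.0426, edgeR), and none of 17 pan-macrophage genes passed. Tgfb1, a cytokine that maintains microglia, rose by 0.34 (adjusted p = 0.0374), and the iron exporter Slc40a1 by 0.42 (adjusted p = 0.00183, edgeR). The dendritic cell receptor gene Clec9a rose by 0.71 (adjusted p = 0.0306, edgeR). Others fell: the complement genes C3 (-0.49, adjusted p = 0.0179) and Cd59a (-0.26, adjusted p = 0.0373), and at low levels the monocyte gene Chil3 (0.13 CPM with antibiotics and 0.554 CPM on chow, adjusted p = 0.000647) and the cytokine gene Tnf (0.0514 CPM with antibiotics and 0.157 CPM on chow, adjusted p = 0.0233), by edgeR. Of the genes tested, 1 of 9 regulators, 1 of 7 Kupffer cell genes and 1 of 7 dendritic cell genes thus rose. Those that fell were 2 of 12 complement, 1 of 5 monocyte and 1 of 11 activation genes. Among all genes 5.8% were higher and 8.4% lower. All 6 neutrophil markers fell there too, to sums of 0.34 to 5.54 CPM with antibiotics, against 3.17 to 22.6 CPM on chow. The part of blood cells in the set's levels was not tested.

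**Figure D3:**
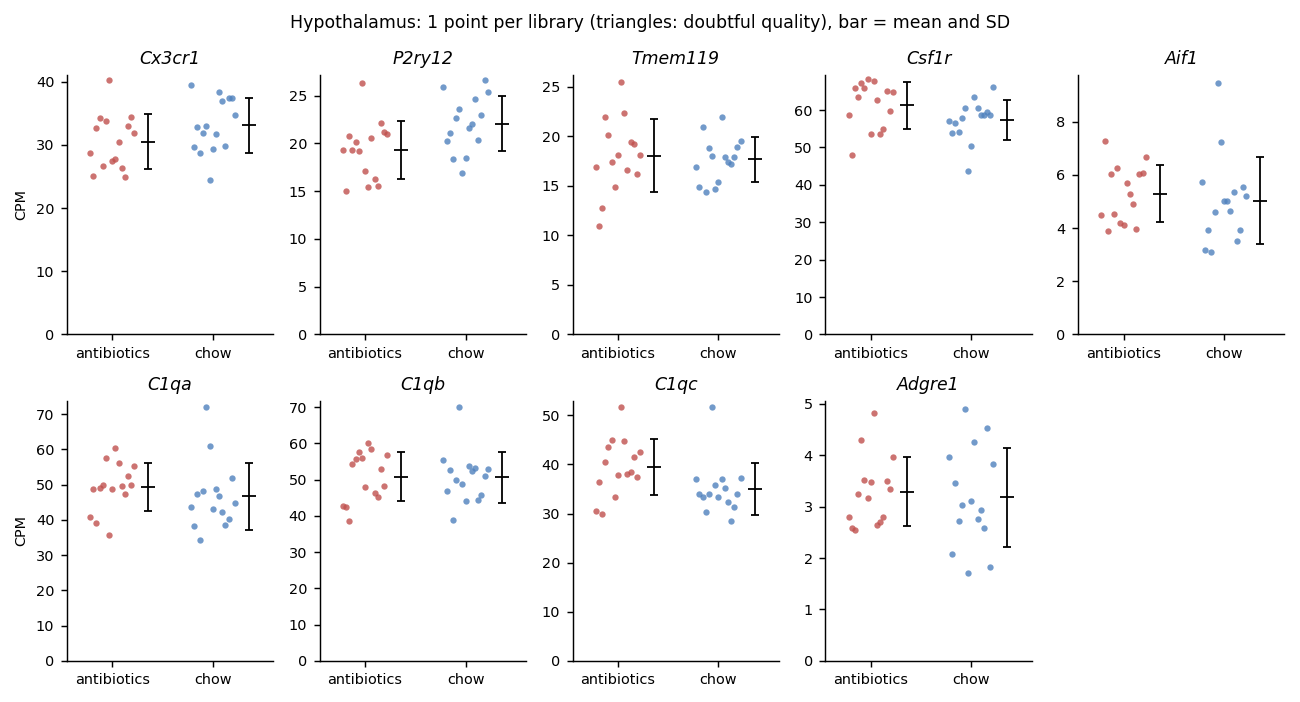
CPM of the 9 genes tested in hypothalamus, 1 point per library with antibiotics at left and chow at right, and the mean with its SD beside them. The diets overlap in every panel, with P2ry12 at a mean of 19.3 CPM with antibiotics and 22.1 CPM on chow.

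In colon no gene of the set passed either, by edgeR, with 0 called by DESeq2 and limma-voom. Of the 9 tested, 0 had an unadjusted p under 0.05 by edgeR, against 4071 of 23717 among all genes. Of all genes, 5.37% of 23717 were called by edgeR (2.26% higher and 3.12% lower). Log2 fold changes were below 0 for 2 of 9 genes, against 49.4% of all genes. Spread was wide: C1qb ran from 9.51 to 80.8 CPM (median 41.4) with antibiotics, against 8.02 to 54.4 CPM (median 29.7) on chow, and 6 of 15 antibiotics libraries lay above the highest chow library. Its log2 fold change was 0.49 ± 0.27 (SE, adjusted p = 0.379, edgeR). Adgre1 averaged 11.0 ± 9.22 CPM with antibiotics and 7.65 ± 4.33 CPM on chow, at 0.57 ± 0.38 (SE, adjusted p = 0.515, edgeR). C1qa averaged 57.1 ± 31.7 CPM with antibiotics and 45 ± 21.8 CPM on chow (interval of the log2 fold change -0.17 to 0.93). Tmem119 averaged 12.7 ± 6.78 CPM with antibiotics and 15.5 ± 5.24 CPM on chow (interval -0.77 to 0.29). The intervals of Cx3cr1 (-0.52 to 0.58), P2ry12 (-0.67 to 0.82), Csf1r (-0.70 to 0.51), Aif1 (-0.25 to 0.82) and C1qc (-0.43 to 0.84) all include 0. That of Csf1r also holds its own liver change, while those of Cx3cr1 and Aif1 lie above their liver changes with all livers counted. Without the doubtful livers the liver change of Aif1 lies inside its colon interval, and that of Cx3cr1 at the edge of its own. Whether liver and colon differed in the diet effect was not tested. Clec4f was at 0 in all 30 colon libraries. In antibiotics LD8/16 replicate 1, the doubtful library, 6 of the other 9 genes were at 0 (Cx3cr1, Tmem119, Csf1r, Aif1, C1qc and Adgre1), and without it 0 of 9 passed, against 7.13% of all genes (3.17% higher and 3.97% lower). The leukocyte genes Ptprc (1.31, adjusted p = 0.0285) and Cd53 (1.29, adjusted p = 0.0435) rose, as did Gpr34 (1.23, adjusted p = 0.0476), while the microglia gene Crybb1 (-3.86, adjusted p = 0.0186) and the lipase gene Lpl (-2.13, adjusted p = 0.000107) fell, all by edgeR. Of 17 pan-macrophage genes 2 rose and 0 fell, and without the doubtful library 4 rose and 0 fell. Of 11 microglia genes 2 rose and 1 fell, and of 11 activation genes 0 rose and 1 fell. Among all genes 2.26% were higher and 3.12% lower. Smooth muscle sums ran from 21.3 to 28642 CPM with antibiotics and from 261 to 32233 CPM on chow, and their part in these levels was not tested.

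**Figure D4:**
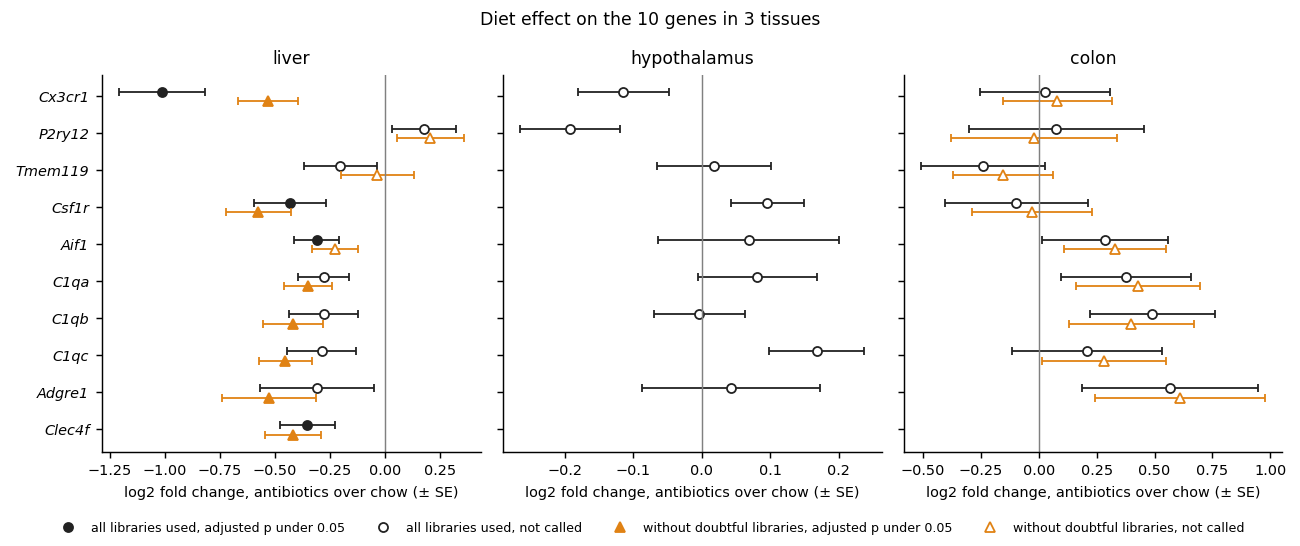
Log2 fold change, antibiotics over chow, with its SE for the 10 genes in liver, hypothalamus and colon; circles use all libraries kept and triangles leave out doubtful ones, filled where adjusted p was under 0.05. In liver 9 of 10 circles lie below 0 and 4 are filled; in hypothalamus and colon none is filled.

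Light regime alone moved none of the genes past the threshold in any of the 10 chow tissues by edgeR. The share of all genes called ranged from 0.0% in hypothalamus, colon, ileum and thymus through 0.00974% in jejunum, 0.00978% in cecum, 0.0502% in mammary gland, 0.268% in inguinal fat and 0.665% in liver to 2.0% in spleen. Unadjusted p-values under 0.05 numbered 6 of 9 genes tested in cecum (1813 of 20452 among all genes), 3 of 10 in jejunum (1917 of 20534) and 2 of 10 in liver (2114 of 19234). They numbered 1 of 9 in inguinal fat (2567 of 20927), 1 of 9 in spleen (3633 of 21938) and 1 of 10 in thymus (1601 of 22289). There were 0 in hypothalamus (1143 of 24557), colon (1205 of 23717), ileum (1605 of 21581) and mammary gland (1448 of 13955). In cecum Csf1r averaged 17.6 ± 10.8 CPM in LD12/12 (SD, n = 3) and 2.90 ± 1.99 CPM in LD8/16 (adjusted p = 0.322, edgeR), and DESeq2 called it (adjusted p = 0.0273, with 2.16% of all genes called). Cx3cr1, C1qa, C1qb and C1qc were likewise highest in LD12/12 there. In spleen, LD12/12 holds 2 doubtful libraries, replicates 2 and 3, and without replicate 1 the test called P2ry12, Aif1 and Adgre1 (lowest adjusted p = 0.000107, edgeR), a comparison that then rests on those 2 and in which 34.9% of all genes were called. In liver, Cx3cr1 was called among chow regimes by edgeR once the 5 doubtful libraries were out (adjusted p = 0.0126), when 6.15% of all genes were called.

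The genes had different tissues of highest expression among chow mice. Levels here are CPM after scaling all 165 chow libraries together, so they differ from the values within a tissue, and tissue and library batch cannot be told apart. Differences between neighbours in the order of means were tested with edgeR's quasi-likelihood test over 30546 genes. For 5 of the 10 genes the highest tissue stood above the next: P2ry12, Aif1, C1qc, Adgre1 and Clec4f.

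Clec4f averaged 215 ± 92.7 CPM in liver (SD, n = 30; 113 to 563 CPM), against 1.02 ± 1.21 CPM in jejunum, the next tissue (SD, n = 15; 0 to 3.37 CPM). The groups did not overlap (log2 difference 8.60, adjusted p = 2.6e-32; 24.2% of all genes were higher in liver than jejunum), and Clec4f was at 0 in all 15 libraries each of colon, ileum, cecum and mammary gland. P2ry12 averaged 11.8 ± 1.54 CPM in hypothalamus (8.99 to 14.1 CPM) and 6.14 ± 2.92 CPM in spleen (0 to 10.2 CPM), where it was at 0 in 2 libraries. The difference was 1.06 (adjusted p = 0.00385, against 37.1% of all genes higher), and 0.59 without doubtful libraries (adjusted p = 0.0817, edgeR). Thymus (2.59 CPM), liver (2.08 CPM) and colon (1.41 CPM) followed, and neither thymus and liver nor liver and colon differed past the threshold. Adgre1 was highest in liver at 28.2 ± 22.0 CPM, above spleen at 12.8 ± 8.08 CPM (1.24, adjusted p = 0.000917, against 26.7% of all genes), but the ranges overlapped and without TMM scaling the difference was -0.08.

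Aif1 led in spleen, at 36.1 ± 7.58 CPM (23.7 to 52.4), above mammary gland at 19.4 ± 15.1 CPM (0 to 52.4; log2 difference 0.95, adjusted p = 0.000894, edgeR, against 38.6% of all genes). Aif1 was lowest in hypothalamus, at 2.68 ± 0.824 CPM, which did not differ past the threshold from cecum (3.12 CPM, adjusted p = 0.809). C1qc was higher in liver (94.8 ± 53.8 CPM) than in mammary gland (70.3 ± 54.7 CPM; 0.57, adjusted p = 0.0292, edgeR, against 38.7% of all genes), a call lost when mitochondrial genes were left out (0.49, adjusted p = 0.0744) or without the low-count filter (0.49, adjusted p = 0.0935). C1qa averaged 105 CPM in liver and 100 CPM in mammary gland (adjusted p = 0.283), and C1qb 97.0 CPM in liver and 90.6 CPM in mammary gland (adjusted p = 0.391), while without TMM scaling liver was above mammary gland for both (1.28 and adjusted p = 2.43e-06 for C1qa, 1.29 and adjusted p = 8.49e-06 for C1qb, edgeR). For all 3 chains spleen and inguinal fat came next, and cecum and jejunum were lowest and did not differ past the threshold. Csf1r averaged 103 ± 18.8 CPM in spleen and 94.0 ± 57.6 CPM in liver (adjusted p = 0.764, edgeR, against 32.8% of all genes higher in spleen than in liver), though without TMM scaling spleen was above liver by 1.55 (adjusted p = 4.93e-08), and liver stood above inguinal fat at 36 ± 10.6 CPM (1.38, adjusted p = 1.28e-06, against 23.6% of all genes).

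Neither Tmem119 nor Cx3cr1 was highest in brain past the threshold. Tmem119 averaged 16.3 ± 5.45 CPM in colon, 10.4 ± 6.06 CPM in inguinal fat and 9.43 ± 1.24 CPM in hypothalamus, and neighbours did not differ past the threshold (adjusted p = 0.0968 for colon over fat and 0.927 for fat over hypothalamus, edgeR). Colon was above fat for Tmem119 by limma-voom (0.75, adjusted p = 0.0469) and with values divided by 4 (0.70, adjusted p = 0.0399, edgeR). Of all genes 20.6% were higher in colon than in inguinal fat. Which colon cells held Tmem119 was not tested. Cx3cr1 averaged 25.2 ± 29.4 CPM in mammary gland, 17.6 ± 2.36 CPM in hypothalamus and 17.6 ± 4.90 CPM in spleen. Neighbours among these 3 did not differ past the threshold by edgeR (adjusted p = 1; 8.79% of all genes were higher in mammary gland than in hypothalamus), but hypothalamus was above mammary gland by limma-voom (mammary minus hypothalamus -0.85, adjusted p = 0.0164) and without TMM scaling (-2.50, adjusted p = 1.48e-12), while spleen stood above colon (9.89 ± 3.10 CPM, adjusted p = 0.0102, against 25.9% of all genes). By medians Cx3cr1 was highest in spleen (19.6 CPM), then hypothalamus (17.5 CPM) and mammary gland (10.9 CPM). Mammary libraries, with a median of 86.4% mitochondrial counts, spread from 0 to 108 CPM. Without TMM scaling hypothalamus had the highest mean of Cx3cr1 and Tmem119, and spleen that of Adgre1 and the C1q chains.

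**Figure D5:**
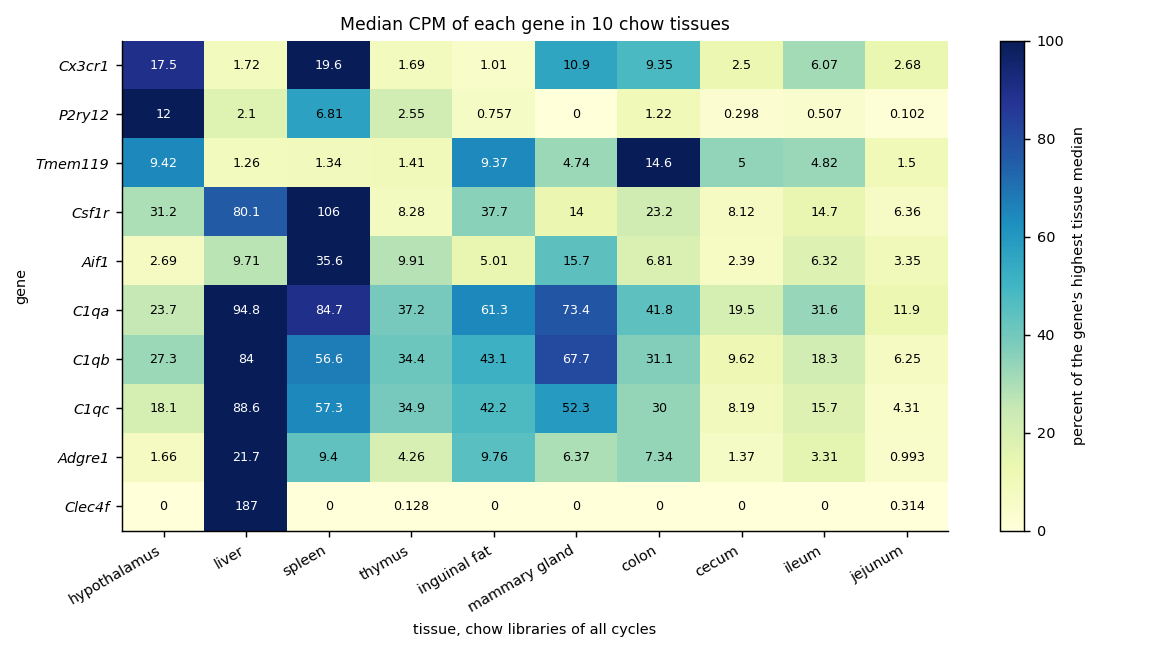
Median CPM of each gene in the chow libraries of 10 tissues, printed in each cell, with the colour giving the percent of that gene's highest tissue. The liver cell of Clec4f (187 CPM), the hypothalamus cell of P2ry12 (12.0 CPM) and the spleen cell of Aif1 (35.6 CPM) mark the highest tissue of those genes.

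The 3 C1q chains took similar shares from library to library in some tissues and not in others. In liver C1qa, C1qb and C1qc took 35.9%, 32.5% and 31.6% of their summed counts with antibiotics (SDs 2.03, 1.46 and 1.16 over 29 libraries), against 37.1%, 31.8% and 31.1% on chow (SDs 5.76, 2.70 and 4.19 over 30 libraries). In hypothalamus the share of C1qc averaged 28.2% with antibiotics (26.7% to 30.1%) and 26.5% on chow (24.6% to 29.4%), and the ranges overlapped. The share of C1qa was 51.2 ± 6.52% in cecum and 48.9 ± 9.69% in jejunum, against 35.0 ± 1.01% in thymus (SD, n = 15 each). In mammary gland the share of C1qa ran from 16.3% to 53.4%, and in colon that of C1qb ran from 23.6% to 85.0% with antibiotics, highest in the doubtful library, and from 25.7% to 33.6% on chow. Gene length was not taken into account, so these are shares of counts and not of molecules.

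Across libraries, after the mean of each diet and regime was taken away, 8 genes of the set varied together in liver, Aif1 more loosely, and Cx3cr1 and Tmem119 did not. Over the 54 livers not called doubtful, the median Pearson correlation of the 45 pairs was 0.66 (-0.30 to 0.98), highest for C1qb with C1qc (0.98) and for C1qa with C1qc (0.97), and C1qb with Clec4f reached 0.95. Aif1 reached 0.81 with C1qa but only 0.38 with P2ry12, 0.42 with Adgre1 and 0.53 with Csf1r. Cx3cr1 lay between -0.15 and 0.29 with each of the other 9 genes, and Tmem119 between -0.30 and -0.09 with each gene but Cx3cr1. With the doubtful livers included the median was 0.37, Cx3cr1 ran against Adgre1 (-0.54) and C1qc (-0.53), and Aif1 with Adgre1 was at 0.06. In hypothalamus the median of 36 pairs was 0.39, with Cx3cr1 and P2ry12 at 0.82 and C1qa and C1qc at 0.86, over 30 libraries. Over the 29 colon libraries not called doubtful the median was 0.63, and Tmem119 lay between -0.16 (Cx3cr1) and 0.03 (C1qa). With the doubtful colon library included Tmem119 ran from -0.23 (P2ry12) to 0.87 (C1qc). Each value shares its library, and so its depth and cell mix, across genes, and these correlations are descriptions.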

How the data were processed

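Per the labels, total RNA was extracted with TRIzol and sequenced after preparation with a SMARTER mRNA-Seq kit. HISAT2 2.1.0, SAMtools 1.10, StringTie 2.2.1 and build GRCm39 are named in the submitters' processing notes, without roles, and strandedness is not given in the sources used here. The authors deposited 1 table of estimated counts (expected counts, whole numbers) per gene for 228 libraries, with 46333 rows. Of these, 2 name no gene (at most 0.114% of a library) and were left out, and 6 carry a repeated name. No value column lacked a library. Cells equal to 4 (146169) outnumber those equal to 3 (86362) or 5 (66707), so dividing all values by 4 was an alternative. Without strand, reads of Cx3cr1 and Gm33858, P2ry12 and Med12l, Csf1r and Gm52352 or Mir6983, and Adgre1 and Gm18069 or Gm20243 cannot be told apart.

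The members and gene lists were chosen with earlier results of these data known. Cecum columns identical to another column (3) and 1 antibiotics liver lacking whole chromosomes were left out, leaving 224 libraries. Genes were filtered per tissue with filterByExpr, scaled by TMM and tested in edgeR 4.0.16 (R 4.3.3) with the quasi-likelihood test of that version (legacy = FALSE), 1 mean per diet and cycle and a diet contrast averaging the 5 cycles. Benjamini-Hochberg adjustment covered all genes tested in a tissue, at 0.05. Chow tissues were compared in 1 fit of 165 libraries. CPM used TMM library sizes, and SEs were derived from the test statistic. Intervals are 1.96 SEs either side. Alternatives were DESeq2 1.42.0, limma 3.58.1 (voom), the legacy fit, no low-count filter, no mitochondrial genes, a replicate block, no doubtful libraries, and each library left out in turn. Lists and correlations without doubtful libraries were added after the data had been seen. All 10 genes were named. From the 27 other lists those past the threshold were, at most 4 per list, tissue and direction by smallest p, with Il34 added after its value was seen; a few list genes are not reported here. Likeness named the 5 genes (mean CPM at least 1) with the highest Pearson correlation to a gene after the means of diet and cycle were removed. Tables and plots used Python 3.11.15, pandas 2.3.3, numpy 2.4.6 and matplotlib 3.10.9. Scripts were tested on simulated counts.

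Replicate numbers recur across groups. The median correlation of same-numbered libraries of different groups, as deviations from group means, was -0.02 in liver, -0.01 in hypothalamus and 0.01 in colon, so the numbers were not taken as pairs.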

Additional observations from a re-analysis of the deposited data

Results flagged for a closer look

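Within liver groups of 5 or 6 libraries, 16 values lay far from the rest of their group by Dixon's criterion, among 100 tests of a gene in a group. Chance gives about 1 in 20 in a single test. The genes share the same libraries, so the 100 tests are not independent. Of the 16 values, 7 belong to chow LD16/8 replicate 6, with 2.96% mitochondrial counts. It held 2.59 CPM of Cx3cr1 (1.09 to 1.53 in the other 5), 208 CPM of Csf1r (35.1 to 73.0), 13 CPM of Aif1 (4.79 to 7.59), 190 CPM of C1qa (59.9 to 70.0), 207 CPM of C1qb (44.4 to 71.5), 182 CPM of C1qc (51.2 to 64.5) and 371 CPM of Clec4f (101 to 169). C1qa also reached 178 CPM in chow LD8/16 replicate 6, against 52.6 to 86.9 CPM in the others.

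Cx3cr1 stood apart in 3 doubtful chow livers, each the highest of its group. It was 4.78 CPM in LD8/16 replicate 3 (40.9% mitochondrial counts), 3.53 CPM in LD12/12 replicate 2 (62.6%) and 2.86 CPM in LD24/0 replicate 5 (48.2%).

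Among antibiotics livers Cx3cr1 was 1.19 CPM in LD12/12 replicate 2 and 0.175 CPM in LD16/8 replicate 4. LD0/24 replicate 5 was lowest of its group for Adgre1 (8.08 CPM, against 19.6 to 22.8 in the others) and Clec4f (80.2 CPM, against 123 to 138), and LD16/8 replicate 6 was lowest for Adgre1 (9.84 CPM, against 14.8 to 17.8).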

How the results depend on the processing

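The count of the 10 genes that fell in antibiotics livers was 4, and it was 7 without libraries of doubtful quality, 2 with the library lacking chromosomes and 2 to 5 when each library was left out in turn. With the replicate number as a block it was 3, without the call for Csf1r, and the check of same-numbered libraries gave no pairing (29.9% of same-numbered liver pairs correlated above 0.1). In hypothalamus leaving out 1 library gave 0 to 1 genes higher and 0 to 1 lower. Among chow regimes 1 gene was called in liver without doubtful libraries, 1 in cecum by DESeq2, and 0 to 3 in spleen when each library was left out in turn.

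Signs turned for differences near 0. Cx3cr1 in mammary gland against hypothalamus was -2.50 without TMM scaling, -0.85 by limma-voom, -0.20 without doubtful libraries and -0.0083 with values divided by 4. Adgre1 in liver against spleen was -0.083 without TMM scaling. With antibiotics, C1qb in hypothalamus was 0.0031 by limma-voom, 0.015 without the filter, 0.0025 without mitochondrial genes and 0.0029 with values divided by 4. Cx3cr1 in colon was -0.20 by limma-voom, -0.0031 by the legacy fit and -0.017 without mitochondrial genes. P2ry12 in colon was -0.48 by limma-voom and -0.020 without doubtful libraries, and C1qc in colon -0.0050 by limma-voom. With each library left out in turn, ranges crossed 0 in hypothalamus for Tmem119 (-0.026 to 0.076), C1qb (-0.025 to 0.048) and Adgre1 (-0.015 to 0.13), and in colon for Cx3cr1 (-0.19 to 0.12), P2ry12 (-0.15 to 0.21), Csf1r (-0.38 to 0.0057) and C1qc (-0.086 to 0.34). The cause was not tested.

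Depth limits the lowest genes most: in chow livers Cx3cr1 rests on 35 to 282 counts per library.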

Other observations

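Genes whose level varied most like that of a gene of the set are given as Pearson correlations after the means of each diet and regime were taken away, as a description without a test, since all genes of a library share its depth and cell mix. Over the 54 livers not called doubtful, Clec4f ran closest to Vsig4 (0.96), Fcna (0.95), Folr2 (0.95), Sdc3 (0.95) and Ctss (0.95). C1qa ran closest to Cfp (0.96), Tyrobp (0.96), Spi1, which encodes PU.1 (0.95), Fcer1g (0.94) and Cyba (0.94), and Adgre1 to Sdc3 (0.96), Axl (0.96), Itga9 (0.95), Cdh5 (0.95) and Itgal (0.95). The median over all genes lay between -0.05 and -0.03.

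In the 30 hypothalamus libraries Cx3cr1 ran closest to P2ry13 (0.77), a relative of P2ry12, followed by Mpped2 (0.75), Tgfa (0.75), Slc15a3 (0.74) and Ppp2r2a (0.74). Csf1r ran closest to Mpeg1 (0.87), Parp4 (0.85), Ctss (0.81), Pcca (0.79) and Cenpj (0.78). C1qa, whose correlation with Cx3cr1 there was -0.13, ran closest to Csnk1g2 (0.94), Rhoc (0.92), Rpl28-ps1 (0.92), Parp3 (0.91) and Serf2 (0.90), none of them on the macrophage lists used here. In the 29 colon libraries not called doubtful, Csf1r ran closest to Cd74 (0.93) and Itgb2 (0.93), and C1qa to Apoe (0.98) and Lyz2 (0.93). Over the medians of 10 chow tissues Csf1r ran closest to Csf1, which encodes a ligand of its receptor (0.90), then to Prtn3 (0.90), S1pr1 (0.89), Siglec1 (0.89) and Clu (0.88).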
